A study of Mus musculus with 6 samples.

Results

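The Slc25 genes encode the mitochondrial carrier family, and 40 of the 14619 genes measured in mouse tibialis anterior muscle carried a symbol of this family (Slc25a followed by a number). Membership was set by symbol alone, whatever the level or change of a gene, but the family was chosen with earlier results of these data known. The GENCODE M21 annotation holds 47 protein-coding Slc25 genes, and the other 7 (Slc25a2, Slc25a21, Slc25a31, Slc25a41, Slc25a43, Slc25a48 and Slc25a54) were not analysed here.

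RNA came from the tibialis anterior, a shin muscle made chiefly of fast fibres. The 3 knockout libraries (replicates 5, 7 and 8) had the genotype HSA-Cre Tg/+; Acin1 F/F, and the 3 control libraries (replicates 1, 2 and 3) had the genotype HSA-Cre Tg/+; Acin1 +/+, so both groups carried 1 copy of the Cre transgene. HSA-Cre is driven by the human skeletal actin promoter, which is active in muscle fibres and not in the vessels, nerves and connective tissue of the muscle. Acin1 encodes acinus, an RNA-binding protein of the splicing machinery, and the comparison asks how its loss in fibres changes transcript levels and splicing. Sex, age and strain were not given in the sources used here. The labels do not say that the libraries came from separate animals, so p-values reflect how much the libraries vary, which may be technical.

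Mitochondrial carriers sit in the inner membrane, built from repeats of paired membrane-spanning helices, and move nucleotides, phosphate, carboxylates, amino acids, cofactors and metals between the cytosol and the matrix. Each carrier alternates between a state open to the cytosol and a state open to the matrix. In muscle the ADP/ATP carrier and the phosphate carrier feed ATP synthase and export its product, the aspartate-glutamate and oxoglutarate carriers form the malate-aspartate shuttle, and the carnitine carrier brings in fatty acids for oxidation.

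The libraries held between 26968597 and 29301125 reads in listed genes in knockout muscle, and between 21084522 and 27190731 in control muscle. Genes of the mitochondrial DNA took 21.4% to 24.1% of these reads. Gene values below are scaled reads, meaning reads divided by a factor that the authors set per library, and changes are differences of log2(scaled reads + 4), knockout minus control, with the standard error (SE) and the adjusted p of limma. Acin1 itself had 1196, 1196 and 1195 scaled reads in knockout muscle, against 1513, 1559 and 1413 in control muscle, a change of -0.32 (SE 0.0709, adjusted p = 0.0266). The Acin1 values of the groups did not overlap. The call was lost without control replicate 1, 2 or 3 or without knockout replicate 7 (adjusted p between 0.0587 and 0.0973). Fibre markers such as Ckm and Acta1 were present in every library, with a summed level of 109000 to 114400 CPM (reads scaled to a fixed library total) over 10 genes in knockout muscle and 113200 to 117800 in control muscle, and 0 of the 10 passed the limma test (1 with unadjusted p under 0.05).

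In knockout muscle 7 of the 40 carriers changed at an adjusted p under 0.05: Slc25a13, Slc25a18, Slc25a33 and Slc25a39 rose, and Slc25a16, Slc25a27 and Slc25a34 fell. The carriers that dominate muscle, Slc25a4 and Slc25a3, did not pass the test, and their fitted changes were -0.06 and 0.13. The 7 carriers were 17.5% of the family, against 11.3% of all genes (1645 of 14619). In the direction of a rise the background was 5.74% of genes, and in the direction of a fall 5.51%. The groups did not overlap for 11 carriers, which is 27.5% of the family against 35.4% of all genes. The median change over the 40 carriers was 0.06, with a median size of 0.20, against a median of -0.01 and a median size of 0.22 over all genes. Of the carriers, 27 had a change smaller than 0.3 in size. Unadjusted, 10 of the 40 carriers had p under 0.05, against 29.3% of all genes (4278 of 14619).

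**Figure D1:**
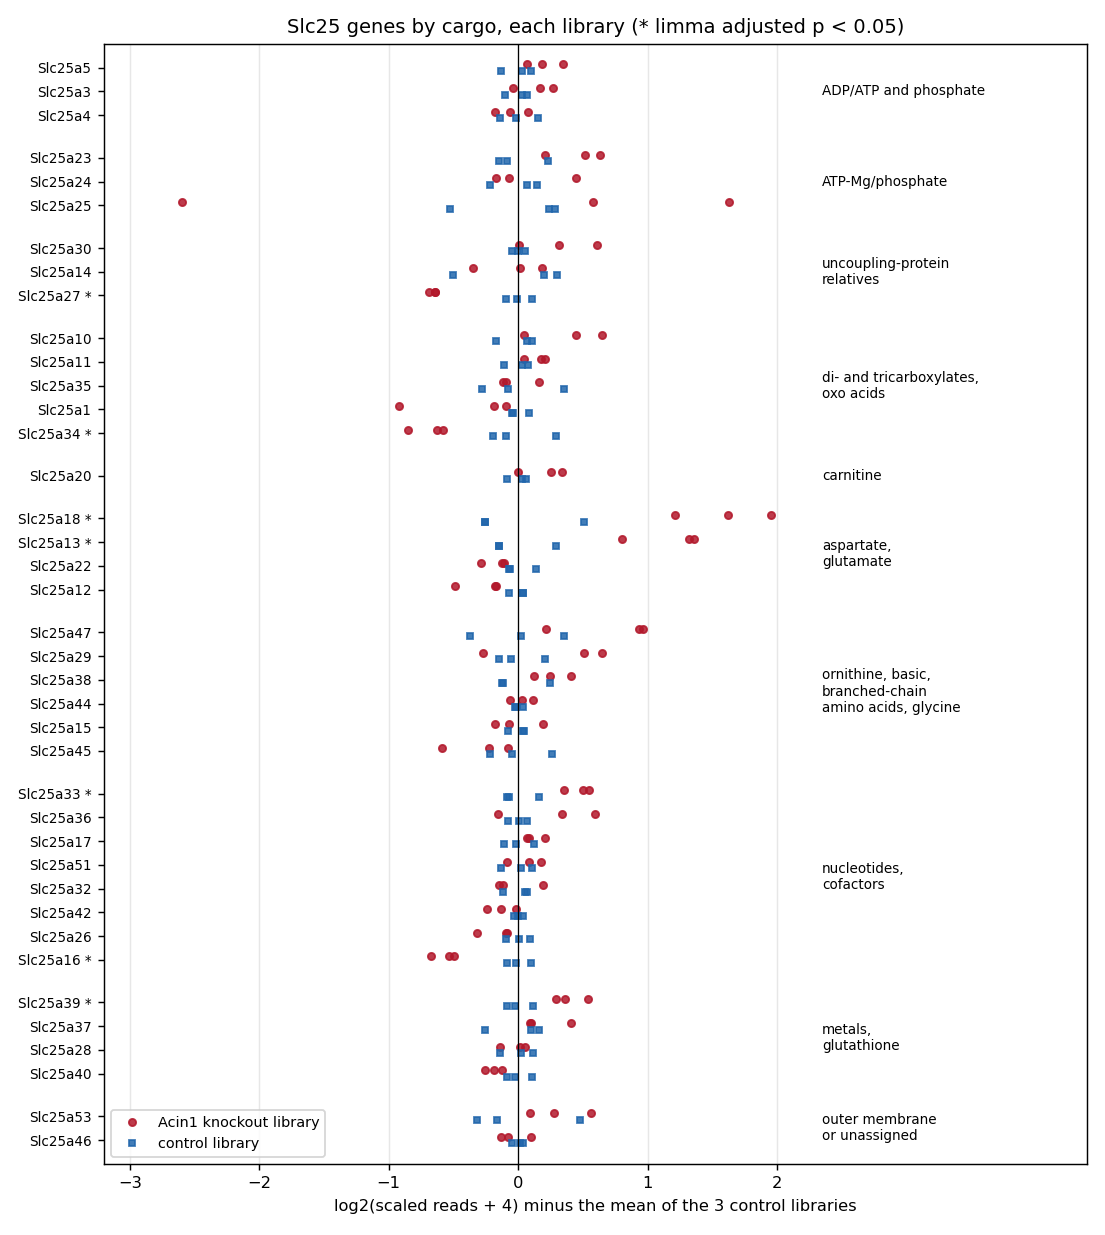
Values of Slc25 genes in each library as log2(scaled reads + 4) minus the mean of the control libraries (x axis), grouped by cargo; circles are 3 knockout and squares 3 control libraries, and an asterisk marks an adjusted p under 0.05. Most carriers lie near 0 in both groups, Slc25a18 and Slc25a13 lie to the right in all knockout libraries, and Slc25a25 has the widest spread, from 148 to 2833 scaled reads among the knockout libraries.

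Levels can be compared between carriers once divided by transcript length, here as CPM per kilobase of merged exons. Slc25a4, the ADP/ATP carrier of muscle and heart, stood at 1606 ± 47.2 in knockout muscle and 1668 ± 113 in control muscle (SD, n = 3 each), and made up 62.5% of the summed level of the family. Slc25a3, which carries phosphate into the matrix, made up 18.5% and Slc25a11, which exchanges oxoglutarate for malate, 5.94%. Together with Slc25a12 these carriers held 89.4% of the family's level. Of the 40 carriers, 3 had a level of at least 100, 10 lay between 10 and 100, 22 between 1 and 10, and 5 below 1. Slc25a18, at 0.213 in knockout and 0.0193 in control muscle, was the lowest.

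**Figure D2:**
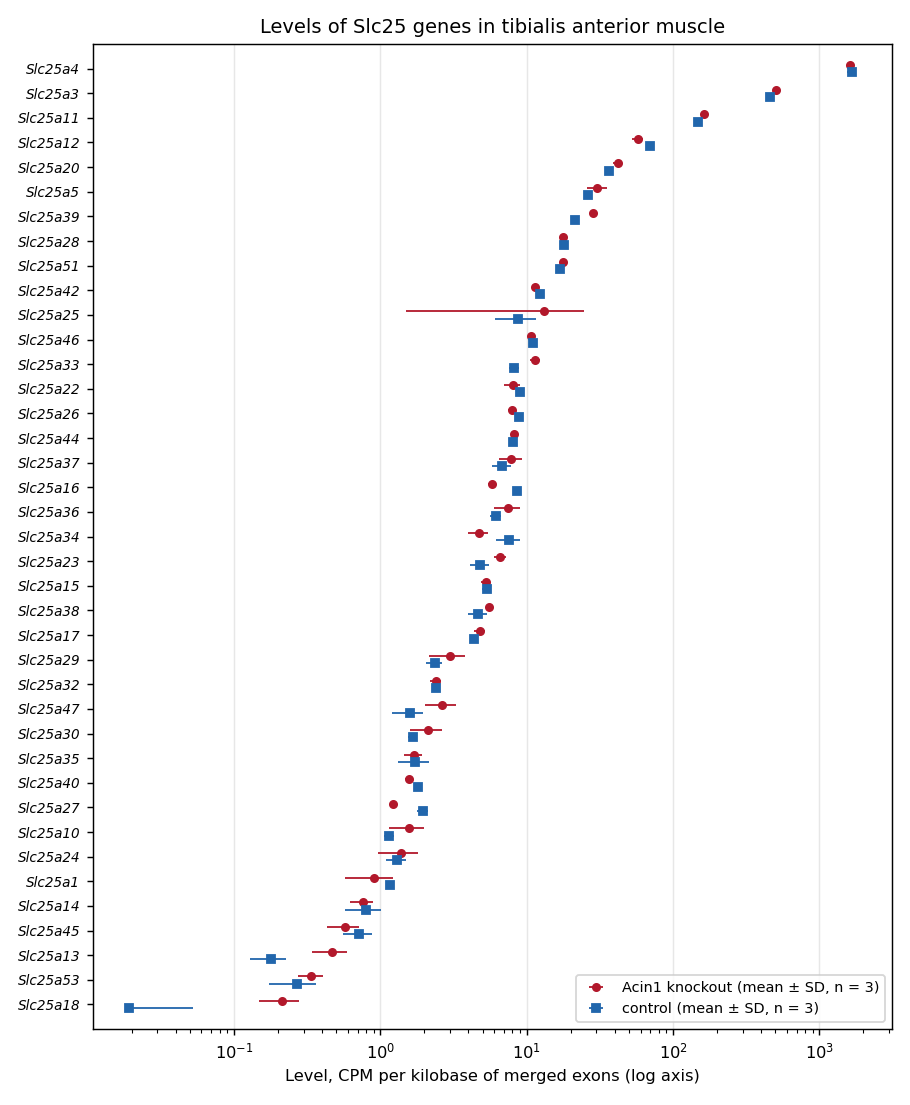
Level of Slc25 genes (y axis, ordered by the mean of all libraries) in CPM per kilobase of merged exons on a log axis, as mean ± SD of 3 knockout libraries (circles) and 3 control libraries (squares); the lower bar of Slc25a18 in control, which would pass 0, is not drawn. The levels run from 1637 for Slc25a4 to 0.116 for Slc25a18, and for most carriers the symbols of both groups lie close together.

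The ADP/ATP and phosphate carriers held the bulk of the family's reads. By limma 0 of 3 passed the test, and 0 had an unadjusted p under 0.05. Slc25a4 had 88220, 80020 and 73860 scaled reads in knockout muscle, against 76050, 93230 and 82830 in control muscle (change -0.06, SE 0.13, adjusted p = 0.809). The ranges overlapped, and the sign of the change turned without control replicate 2 (0.02) or knockout replicate 8 (0.0048). Slc25a3 had 28320, 26440 and 22860 scaled reads in knockout muscle, against 21910, 24630 and 23950 in control muscle (change 0.13, SE 0.106, adjusted p = 0.433). Slc25a5, the ADP/ATP carrier of dividing and non-muscle cells, had 890, 964 and 1079 scaled reads in knockout muscle, against 774, 869 and 913 in control muscle (change 0.20, SE 0.0995, adjusted p = 0.228). For both genes the highest control library lay above the lowest knockout library. Slc25a5 has processed pseudogene copies, between which reads can be split.

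Slc25a3 has a pair of mutually exclusive exons, 1 of which belongs to the form of heart and skeletal muscle. The exon of 125 bases (chr10:90958069-90958193, GRCm39, minus strand) was used in 99.2%, 98.8% and 98.6% of knockout molecules by the authors' rMATS junction counts, against 98.2%, 98.8% and 98.4% of control molecules, in place of the exon of 122 bases (chr10:90957784-90957905). These values rest on a mean of 5399 junction reads per library and carried a deposited false discovery rate (FDR) of 0.306. The muscle's choice of exon was nearly complete in both groups.

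All 4 aspartate and glutamate carriers had groups that did not overlap, against 35.4% of all genes and 27.5% of the family. Of these 4, 2 were called higher, against 5.74% of all genes, and Slc25a12 and Slc25a22 lay below control without passing the test. Slc25a12 (aralar) and Slc25a13 (citrin) exchange matrix aspartate for cytosolic glutamate, and Slc25a18 and Slc25a22 import glutamate with a proton. Slc25a13, on chromosome 6 and best known from liver, had 27.9, 43.1 and 41.7 scaled reads in knockout muscle, against 18.4, 12.6 and 12.5 in control muscle, and rose by 1.16 (SE 0.263, adjusted p = 0.0280). Every knockout library lay above every control library for Slc25a13. The call was lost when control replicate 1, 2 or 3 or knockout replicate 7 or 8 was left out (adjusted p between 0.0585 and 0.094).

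Slc25a18, also on chromosome 6, had 14.4, 7.03 and 10.6 scaled reads in knockout muscle, against 2.76, 0 and 0 in control muscle. The counts behind these values were 34 reads in knockout and 3 reads in control muscle, a ratio of 9.95 after scaling, with an exact 95% interval of 3.13 to 50.6 that covers counting error only. The fitted change was 1.59 (SE 0.408, adjusted p = 0.0414). The call was lost whichever of the 6 libraries was left out (adjusted p between 0.0652 and 0.114), and with 16 in place of 4 added before the log (0.0529). Slc25a18 shares 1.67% of its exon bases with Atp6v1e1 on the opposite strand, and use of the strand in counting is not given in the sources used here.

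Slc25a12, the abundant aspartate-glutamate carrier of muscle, had 10180, 10250 and 8235 scaled reads in knockout muscle, against 11830, 11860 and 10980 in control muscle (change -0.28, SE 0.101, adjusted p = 0.106). Slc25a22 had 554, 628 and 622 scaled reads in knockout muscle, against 648, 747 and 644 in control muscle (change -0.17, adjusted p = 0.261). The knockout libraries lay below all control libraries for both genes. Per length, Slc25a12 stood at 57.6 CPM per kilobase in knockout and 69.7 in control muscle, while Slc25a13 stood at 0.466 in knockout and 0.179 in control muscle, so the carrier that rose remained a small part of the aspartate-glutamate carriers. The summed level of the 4 genes was 361 to 424.5 CPM in knockout and 441.5 to 498.8 CPM in control muscle.

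Of the 9 nucleotide and cofactor carriers measured, 1 rose and 1 fell. Slc25a33, which carries pyrimidine nucleotides into mitochondria, had 592, 519 and 576 scaled reads in knockout muscle, against 381, 452 and 384 in control muscle, and rose by 0.47 (SE 0.102, adjusted p = 0.0250). The groups did not overlap for Slc25a33, which lies on chromosome 4 and shares 14.9% of its exon bases with the antisense gene Gm13068. Its call was lost without control replicate 1 or 3 or knockout replicate 5 (adjusted p between 0.0508 and 0.0883), and in limma without the mean-variance trend (0.0648). Slc25a16, on chromosome 10 and linked to coenzyme A in the matrix, had 485, 498 and 439 scaled reads in knockout muscle, against 662, 754 and 694 in control muscle, and fell by 0.57 (SE 0.0904, adjusted p = 0.00992). Of the 7 carriers called, Slc25a16 was the one whose call held in each of 16 other settings (adjusted p between 0.00025 and 0.0464). The remaining 7 carriers of the group did not pass the test. They included Slc25a17 (a peroxisomal carrier), Slc25a26 (S-adenosylmethionine), Slc25a32 (folate and flavin), Slc25a36 (pyrimidine nucleotides), Slc25a42 (coenzyme A) and Slc25a51 (NAD), with changes between -0.16 for Slc25a26 and 0.26 for Slc25a36.

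Of the 3 relatives of the uncoupling proteins, 1 fell. Slc25a27, known chiefly from the brain and located on chromosome 17, had 126.9, 126.5 and 122.4 scaled reads in knockout muscle, against 198, 187 and 215 in control muscle, and fell by 0.66 (SE 0.114, adjusted p = 0.0123). The knockout libraries were close together and all lay below the control libraries. Leaving out control replicate 3 ended the call (adjusted p = 0.0558). Slc25a14 and Slc25a30 had changes of -0.05 and 0.31 (adjusted p = 0.925 and 0.229).

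Among 5 carriers grouped here under dicarboxylates, tricarboxylates and oxo acids, 1 fell. Slc25a34, on chromosome 4, is a carrier whose cargo is not settled and which was placed here by its likeness to Slc25a35. That likeness does not establish its cargo. It had 289.8, 338 and 349.5 scaled reads in knockout muscle, against 491, 458.5 and 643 in control muscle, and fell by 0.69 (SE 0.14, adjusted p = 0.0207). The groups did not overlap. The call was lost without control replicate 1 or 3 or knockout replicate 7 (adjusted p between 0.0554 and 0.0606), and in limma without the mean-variance trend (0.0612). Slc25a1, the citrate carrier, had 24.8, 43.9 and 47 scaled reads in knockout muscle, against 48.8, 49.2 and 53.8 in control muscle (change -0.40, SE 0.247, adjusted p = 0.316). Its groups did not overlap either, and knockout replicate 5 was the lowest library. Slc25a11 had 7441, 7617 and 6800 scaled reads in knockout muscle, against 6103, 6969 and 6742 in control muscle (change 0.14, SE 0.0833, adjusted p = 0.294). Slc25a10, the dicarboxylate carrier, and Slc25a35 had changes of 0.38 and -0.02 (adjusted p = 0.235 and 0.965). Slc25a35 shares 31.3% of its exon bases with Rangrf on the opposite strand.

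**Figure D3:**
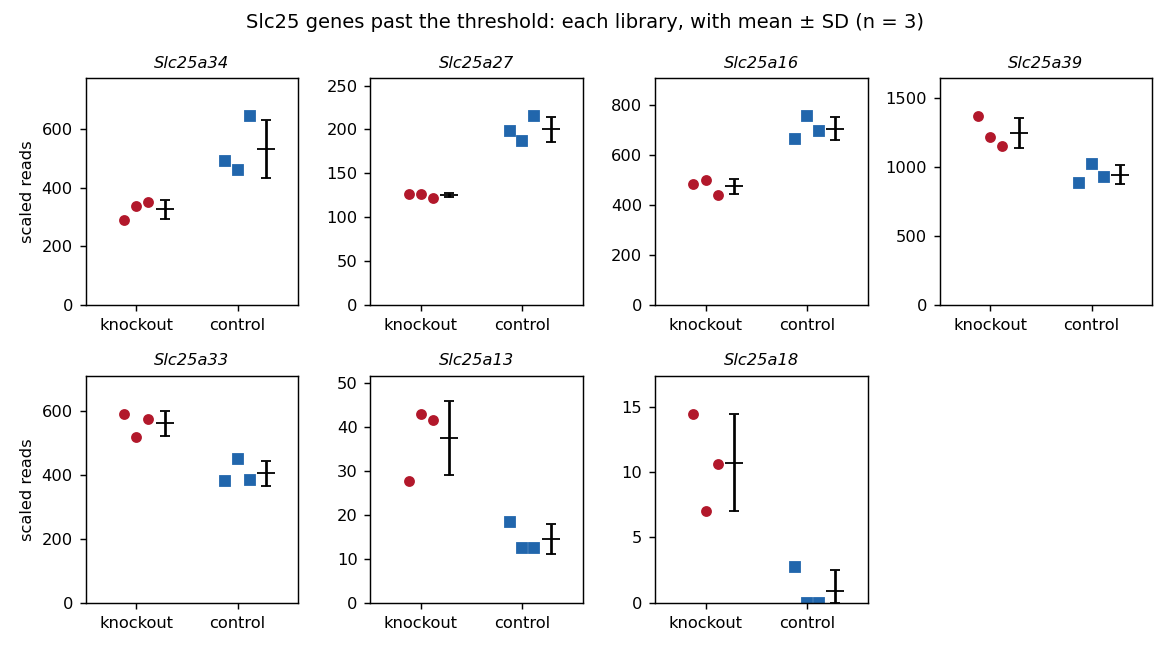
Scaled reads (y axis, from 0, a scale for each gene) of the 7 Slc25 genes with an adjusted p under 0.05, with 3 knockout libraries on the left and 3 control libraries on the right of each panel and the mean ± SD beside them. Slc25a34, Slc25a27 and Slc25a16 are lower and the other four higher in all knockout libraries, and Slc25a18 rests on fewer than 15 scaled reads in every library.

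Of the 4 carriers of metals and glutathione, 1 rose. Slc25a39, which imports glutathione into mitochondria and lies on chromosome 11, had 1366, 1213 and 1153 scaled reads in knockout muscle, against 885, 1018 and 924 in control muscle, and rose by 0.40 (SE 0.0921, adjusted p = 0.0301). Every knockout library lay above every control library. Leaving out control replicate 1, 2 or 3 or knockout replicate 5 or 7 ended the call (adjusted p between 0.0546 and 0.102), as did limma without the mean-variance trend (0.0867). Slc25a40, the close relative of Slc25a39, had 114.5, 119.5 and 109.1 scaled reads in knockout muscle, against 123, 141 and 129 in control muscle (change -0.19, adjusted p = 0.347), and the groups did not overlap. Slc25a28 (mitoferrin 2, an iron importer) had 749, 729 and 653 scaled reads in knockout muscle, against 655, 779.8 and 733 in control muscle (change -0.02, SE 0.0957, adjusted p = 0.899). Slc25a37 (mitoferrin 1, the iron importer of red cell precursors) had 790, 784 and 978 scaled reads in knockout muscle, against 788, 824 and 617 in control muscle (change 0.20, SE 0.133, adjusted p = 0.357). The groups overlapped for both iron importers, and the sign for Slc25a28 turned without control replicate 2 or knockout replicate 8. Red cell transcripts, which differ with the blood left in a muscle, summed to between 138 and 235 CPM over 6 globin and erythroid genes in knockout muscle and between 227 and 835 CPM in control muscle. Of the 6 genes 0 passed the limma test and 5 (Hba-a1, Hba-a2, Hbb-bs, Hbb-bt and Alas2) had an unadjusted p under 0.05. In the authors' deposited table Alas2 passed (adjusted p = 0.00316) and the others did not. The part of these genes in the values of the iron carriers was not tested.

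Of the 6 carriers grouped here under ornithine, basic and branched-chain amino acids and glycine, 0 passed the limma test and 1 had an unadjusted p under 0.05. This grouping does not establish what its members carry, Slc25a47 included. Slc25a47, best known from liver, had the highest fitted change among them, with 151.6, 154.6 and 90.5 scaled reads in knockout muscle, against 59, 78.5 and 100.1 in control muscle (change 0.70, SE 0.252, adjusted p = 0.106, unadjusted p = 0.0221). Slc25a15, which exchanges ornithine and citrulline for the urea cycle, had 543.5, 453 and 420 scaled reads in knockout muscle, against 488, 491 and 450.2 in control muscle (change -0.02, SE 0.111, adjusted p = 0.926). Its levels overlapped between the groups, and the sign turned without control replicate 2 or knockout replicate 7 or 8. An intron of Slc25a15, described further on, was retained more in knockout muscle by rMATS. Slc25a29, Slc25a38, Slc25a44 and Slc25a45 had changes between -0.30 for Slc25a45 and 0.29 for Slc25a29.

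The carnitine carrier Slc25a20 had 2144, 2019 and 1694 scaled reads in knockout muscle, against 1592, 1767 and 1728 in control muscle (change 0.20, SE 0.099, adjusted p = 0.224). Of the 3 calcium-regulated carriers that exchange ATP-Mg for phosphate, 0 passed the limma test and 1 had an unadjusted p under 0.05. Slc25a23 had 653, 603 and 485 scaled reads in knockout muscle, against 396, 378 and 494 in control muscle (change 0.45, SE 0.141, adjusted p = 0.0719). The lowest knockout library lay under the highest control library, and the authors' deposited table gives Slc25a23 an adjusted p of 0.0386, so that 8 carriers pass there against 7 here, among 12.2% of all genes. Slc25a25 had the widest spread of the family, with 2833, 148 and 1362 scaled reads in knockout muscle, against 1080, 631 and 1114 in control muscle (change -0.13, SE 0.886, adjusted p = 0.941). Knockout replicate 5 was the highest and knockout replicate 7 the lowest of the 6 libraries. The mean of the scaled reads of Slc25a25 runs the other way from the change on the log2 scale, at 1447 ± 1345 in knockout and 942 ± 269.5 in control muscle (SD, n = 3 each), and the authors' deposited table gives a log2 change of 0.62. Slc25a24 had a change of 0.07 (adjusted p = 0.846), and Slc25a46, an outer-membrane protein of mitochondrial dynamics, and Slc25a53, with no assigned cargo, had changes of -0.04 and 0.31 (adjusted p = 0.809 and 0.498).

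Muscle tissue holds other cells beside fibres, and in bulk RNA fewer cells of a type and less RNA per cell cannot be told apart. Over all genes 5.74% were called higher and 5.51% lower. Among the marker lists, 3 of 5 endothelial genes (Tie1, Tek and Pecam1) fell. The 5 together summed to between 200.6 and 272 CPM in knockout muscle and between 277 and 342 CPM in control muscle. Of 3 smooth muscle genes 1 fell (Rgs5), and the list summed to between 279 and 365.5 CPM in knockout muscle and between 418 and 465 CPM in control muscle. Of 4 genes of regenerating fibres 3 rose (Myh8, Myh3 and Mymk), with summed levels of 9.49 to 53.8 CPM in knockout and 2.83 to 4.70 CPM in control muscle. Knockout replicate 8 was the highest library for Myh8, Myh3 and Mymk. For Mymk, knockout replicates 5, 7 and 8 had 21.7, 47.5 and 193 scaled reads. The macrophage, adipocyte, brown adipocyte, fibroblast and satellite cell lists held 0 limma calls, with 3 genes of them in all at an unadjusted p under 0.05. The macrophage gene Cd68 had 107 ± 62.5 scaled reads in knockout and 37 ± 11.8 in control muscle (SD, limma adjusted p = 0.0527). It passed in the authors' deposited table (adjusted p = 0.00312), where the other macrophage genes did not. Ucp1, the defining gene of brown fat, was not analysed here. The part of these cells in the carriers that rose or fell was not tested.

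The genes that work beside the carriers are read against the same background of 11.3% of genes. Of the 4 measured relatives of the family with other symbols (Ucp2, Ucp3, Mtch1 and Mtch2) 0 passed the limma test and 0 had an unadjusted p under 0.05. Of 23 other mitochondrial transport proteins 1 rose and 1 fell. Micu2, a gatekeeper of the calcium uniporter, rose to 1148 ± 145 scaled reads in knockout muscle, against 761.5 ± 33.3 in control muscle (SD, n = 3 each; change 0.58, limma adjusted p = 0.0121), a call lost without control replicate 1 (0.0531). Abcb8, a subunit of an ATP-binding transporter of the inner membrane, fell to 537.5 ± 7.81 scaled reads in knockout muscle, against 1024 ± 67 in control muscle (SD, n = 3 each; change -0.92, limma adjusted p = 0.0011), and this call held whichever library was left out.

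Carriers reach the inner membrane through small chaperones of the intermembrane space and the TIM22 complex. Of the 13 genes of this import route 2 rose and 0 fell, with a median change of 0.29. Timm10 rose to 415 ± 28.6 scaled reads in knockout muscle, against 265 ± 5.17 in control muscle (SD, n = 3 each; change 0.64, limma adjusted p = 0.00667), and its call held whichever library was left out. Timm10b rose to 451 ± 24.3 scaled reads in knockout muscle, against 324 ± 34.5 in control muscle (SD, n = 3 each; change 0.47, limma adjusted p = 0.0270), a call lost without control replicate 1, 2 or 3 or knockout replicate 7 (0.0543 to 0.0904). Both encode chaperones that hold carrier precursors on their way to the inner membrane.

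Of 18 shuttle and partner enzymes 1 rose and 0 fell. Bcat2, the mitochondrial aminotransferase of branched-chain amino acids, rose to 1358 ± 112 scaled reads in knockout muscle, against 968.5 ± 39.7 in control muscle (SD, n = 3 each; change 0.48, limma adjusted p = 0.0126). That call was lost without control replicate 1 or 3 or knockout replicate 7 (0.0502 to 0.0558). Of 7 genes that follow mitochondrial content 1 was called lower and 0 higher, with a median change of 0.14. Tfam, Tomm20, Esrra and Immt had changes of 0.31, 0.29, 0.17 and 0.14, and Hspd1 one of -0.02. These genes did not pass the test (limma adjusted p of at least 0.0644). Ppargc1a, a coactivator of mitochondrial biogenesis, fell to 509 ± 59 scaled reads in knockout muscle, against 868.5 ± 181 in control muscle (SD, n = 3 each; change -0.75, limma adjusted p = 0.0186), a call lost without knockout replicate 7 (0.0573). Citrate synthase (Cs), a common measure of mitochondrial content, had 22010 ± 1405 scaled reads in knockout and 24760 ± 397 in control muscle (SD, n = 3 each; change -0.17, limma adjusted p = 0.225).

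Splicing of the carriers was read from the authors' rMATS table, which lists 114 events in 29 Slc25 genes, 85 of them in 25 genes with a mean of at least 10 junction reads per library. Its columns name no genotype, and the columns headed sample 1 were taken as control and sample 2 as knockout. This reading rests on the junction reads of the authors' second splicing table, made with CASH, whose columns name the groups: its control value equalled the sum of sample 1 for 326 of 1450 shared exons and that of sample 2 for 28 of 1575. Which library stands at which place within a group is not given. Of the 85 events 3 had a deposited FDR under 0.05, which is 3.53% against 3.37% of all events (774 of 22946). All 3 were introns retained more in knockout muscle, 1 in Slc25a15 and 2, which share reads, in Slc25a37. The Slc25a15 intron had already been named when the family was chosen, so it was not looked at blind. The called introns were among 9 retained introns of carriers with a mean of at least 10 junction reads per library. Of retained introns in all genes, 3.66% were called (79 of 2157), and 2.13% in the direction of more retention in knockout muscle.

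The bases at the ends of the introns of Slc25a15 and Slc25a37 are shown because retention is read from junctions there. They come from GENCODE M21 transcripts that hold each intron, Slc25a15-202 and Slc25a37-203, matched by the lengths of the intron and of the exons on both sides. For Slc25a37 the longer of the called introns, with 1756 bases, is shown. Capitals mark the first 10 and the last 3 bases of the intron, and the lower-case bases before the first and after the last capitals of each pair are exon.
Slc25a15 start of intron: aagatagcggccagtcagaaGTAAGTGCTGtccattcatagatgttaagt
Slc25a15 end of intron: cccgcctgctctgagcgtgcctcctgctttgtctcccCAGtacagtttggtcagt
Slc25a37 start of intron: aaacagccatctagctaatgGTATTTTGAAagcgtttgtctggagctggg
Slc25a37 end of intron: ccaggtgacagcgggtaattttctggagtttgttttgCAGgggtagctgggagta
All begin with GT and end with AG, as most introns do. Read in the frame of the exon before it, the Slc25a15 intron has its first stop codon ending 4 bases into the intron, and the Slc25a37 intron has it 110 bases in.

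The Slc25a15 intron lies at chr8:22871024-22873222 (GRCm39, minus strand, 2199 bases), between coding exons of 138 and 170 bases. In knockout libraries 22, 10 and 12 junction reads supported retention and 12, 10 and 3 supported splicing. In control libraries 5, 0 and 2 reads supported retention and 12, 24 and 10 supported splicing. Corrected for the length over which reads can fall, the intron was retained in 47.8%, 33.3% and 66.7% of knockout molecules, against 17.2%, 0% and 9.09% of control molecules.

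Retention of the Slc25a15 intron thus averaged 49.3% ± 16.7 in knockout and 8.78% ± 8.63 in control muscle (SD, n = 3 each), with a deposited rMATS FDR of 4.9e-05. Every knockout value lay above every control value, and an exact permutation test over the 6 libraries, two-sided, gave p = 0.1, the smallest that 3 against 3 allows. In the authors' CASH table the same intron had 28 reads for and 23 against retention in knockout (54.9%, exact 95% interval 40.3% to 68.9%) and 6 for and 47 against in control muscle (11.3%, 4.27% to 23.0%), with p = 0.0565 and FDR 0.999 in that deposited table. The CASH percentages are shares of reads without the correction for length, unlike those of rMATS. The CASH knockout column appeared to hold 2 of the 3 knockout libraries, since it matched the sum of the first 2 values of sample 2 in 299 of 1260 exons, and the sum of all 3 in 2 of 1575. The difference in Slc25a15 rested on a mean of 20.3 junction reads per library, a small number.

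Slc25a37 had 2 called introns that end at the same place and share reads: chr14:69485087-69486331 (1245 bases) and chr14:69485087-69486842 (1756 bases), both on the minus strand. The shorter was retained in 100%, 90.7% and 100% of knockout molecules, against 66.7%, 78.9% and 78.9% of control molecules (96.9% ± 5.37 in knockout and 74.9% ± 7.09 in control muscle, SD, n = 3 each; deposited FDR 0.00779). The longer was retained in 95.3%, 96.1% and 86% of knockout molecules, against 68.4%, 57.1% and 80% of control molecules (92.5% ± 5.64 in knockout and 68.5% ± 11.4 in control muscle, SD, n = 3 each; deposited FDR 0.0168). The groups did not overlap for either intron. Retained reads were the majority in control muscle as well, where 8 reads supported splicing of the shorter and 14 of the longer intron. An alternative 5′ splice site event of Slc25a37 had the same exclusion reads as the longer intron and was not called (deposited FDR 0.178). The share of whole Slc25a37 molecules in each form cannot be read from these junction counts. CASH gave the shorter intron 99 reads for and 5 against retention in knockout (95.2%) and 46 for and 11 against in control muscle (80.7%), at a deposited FDR of 0.999. These percentages too are shares of reads without the correction for length.

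The calls on these introns were those of rMATS. When the log2 ratio of inclusion to exclusion reads of each library was fitted with limma over all events of a type, 0 of the 85 carrier events passed at an adjusted p under 0.05, and 10 had an unadjusted p under 0.05, against 9.09% of all events. This fit called 0.257% of all events (59 of 22946) and 0 of 2157 retained introns in any gene, so its 0 for the carriers is no more than the background. The adjusted p was 0.41 for the Slc25a15 intron, 0.388 for the shorter and 0.399 for the longer Slc25a37 intron. CASH called 0 of 142 carrier events, of which 1 had an unadjusted p under 0.05, in a table where 0.0465% of all events were called. By the deposited p of rMATS 17 of the 85 events were under 0.05 unadjusted, against 10.6% of all events.

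**Figure D4:**
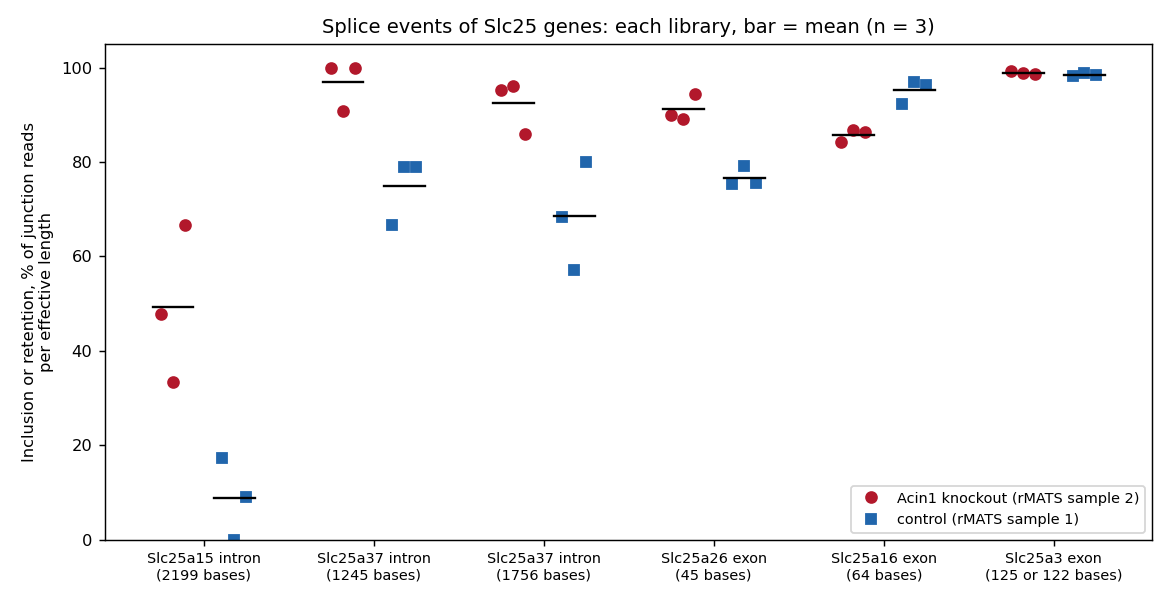
Inclusion of an exon or retention of an intron (y axis, percent of junction reads corrected for effective length) in 3 knockout libraries (circles, left) and 3 control libraries (squares, right), with the mean as a bar. The introns of Slc25a15 and Slc25a37 were called by rMATS, and the exons of Slc25a26, Slc25a16 and Slc25a3, which were not, are shown for comparison.

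Several exons differed between the groups without reaching the FDR of 0.05 in the deposited table. An exon of 45 bases in Slc25a26, the S-adenosylmethionine carrier (chr6:94553315-94553359, plus strand), was included in 89.9%, 89.2% and 94.4% of knockout molecules, against 75.3%, 79.1% and 75.6% of control molecules (FDR 0.0703). Another rMATS event of the same exon had 35 inclusion and 0 exclusion reads in knockout and 25 and 1 in control muscle, with overlapping groups. CASH gave this exon 128 inclusion and 7 exclusion reads in knockout and 169 and 22 in control muscle (deposited FDR 0.999). An exon of 64 bases in Slc25a16 (chr10:62768498-62768561, plus strand) was included in 84.2%, 86.7% and 86.3% of knockout molecules, against 92.2%, 97% and 96.3% of control molecules (FDR 0.164), which makes Slc25a16 lower both in level and in the inclusion of this exon, the second without a call. An exon of 65 bases in Slc25a28 (chr19:43654352-43654416, minus strand) had 1, 6 and 4 inclusion reads in knockout libraries and 0, 0 and 0 in control libraries (5.21% ± 3.45 in knockout and 0% in control muscle, SD, n = 3 each; FDR 0.0603). In each of these rMATS events, the other Slc25a26 event aside, the groups did not overlap. Events of Slc25a46 and Slc25a47 that were not called separated as well. How many of all events separate in this way was not counted, so the separation here and in the called introns has no background to be read against. For Slc25a28 a count of 0 among the 90 control reads leaves room for a low inclusion. CASH counted 1 inclusion and 93 exclusion reads for this exon in control muscle and 10 and 81 in knockout muscle (deposited FDR 0.999).

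Both other events under the FDR of 0.05 fell below the minimum of 10 reads. An exon of 72 bases in Slc25a40 (chr5:8477196-8477267, plus strand) was included in 40.3%, 22.4% and 33.2% of knockout molecules, against 77.7%, 100% and 100% of control molecules, with a deposited FDR of 8.14e-06. It rested on 18 inclusion and 23 exclusion reads in knockout and 16 inclusion and 1 exclusion reads in control muscle, a mean of 9.67 per library. Another rMATS event of the same exon, not called, had 9 inclusion and 1 exclusion reads in knockout and 15 and 0 in control muscle. CASH gave this exon 13 inclusion and 16 exclusion reads in knockout and 20 and 1 in control muscle, also without a call. The other event under the FDR of 0.05, in Slc25a14, rested on a mean of 3 reads per library and an alternative 5′ splice site. Among the 7 carriers that changed in level, rMATS listed events for Slc25a16 and Slc25a39 only, and 0 of these events were called. The others had no listed event and so could not be called, and a link between level and splicing was not tested. Both carriers with a called intron had levels that overlapped between the groups.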

How the data were processed

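Per the labels, 0.3 µg of RNA per muscle entered a directional MGI library kit. FastQC 12.0, Trimmomatic 0.39, STAR 2.7.9a, RSEM 1.3.3 and GRCm39 are named in the submitters' processing notes, without roles. The deposited gene table holds log2(reads divided by 1 factor per library, plus 4), and whole reads came back for 100% of values (tolerance 0.001). The authors' adjusted p-values and log2 changes stand beside them. rMATS and CASH tables hold, per the file headers, junction read counts, deposited p-values, FDR and inclusion differences, a score as deposited.

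The log2 values of 14619 genes were tested with limma 3.58.1 (R 4.3.3; trend, two-sided, Benjamini-Hochberg adjusted p under 0.05). Replicates differed by more than counting noise (chi-square per degree of freedom between 10.8 and 43.7), and all 6 libraries were kept. Splice events needed a mean of 10 junction reads per library. Lengths, chromosomes and overlaps came from GENCODE M21 (GRCm38). The members and lists were chosen with earlier results of these data known. Values were given in full for called carriers, the 8 highest in level, carriers with non-overlapping groups and a change of at least 0.3, and carriers with a called event; other carriers given in full were chosen after their values were seen. The test was tried on simulated data. A carrier and a marker list are not reported here by name. Intervals cover counting error only.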

Additional observations from a re-analysis of the deposited data

How the results depend on the processing

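The count of carriers called higher, 4, was 2 among genes with a mean of at least 50 scaled reads, where Slc25a13 and Slc25a18 were not tested, and 2 in limma without the trend, where Slc25a33, Slc25a39 and, among the lower, Slc25a34 lost their call. Leaving out 1 library at a time gave 0 to 5 carriers higher, with 0 without control replicate 1 or 3, 1 without control replicate 2 or knockout replicate 5 or 7, and 1 to 3 carriers lower, with 1 without control replicate 3. Over all genes the count of 1645 became 792 without the trend and 477 to 1520 without 1 library (477, 488 and 511 without control replicates 1, 2 and 3, and 698 without knockout replicate 7). The cause was not tested. The 3 rMATS events became 0 with limma on inclusion ratios, which called 0 of 2157 retained introns in any gene, and 0 with CASH, which called 28 of 60273 events.

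Changes turned in sign without 1 library for Slc25a4 (from -0.1267 to 0.02024, positive without control replicate 2 or knockout replicate 8), Slc25a28 (from -0.09198 to 0.03584, positive without the same libraries) and Slc25a15 (from -0.1254 to 0.05978, positive without control replicate 2 or knockout replicate 7 or 8). These 3 carriers were not called. Over all named carriers and settings, 235 values kept their direction and side of the threshold, 27 lost a call and 7 turned in sign. No paired analysis was possible because the replicate numbers of the groups, 5, 7 and 8 in knockout and 1, 2 and 3 in control, are not shared. Count models were planned only for a table of raw counts and were not run, because the deposited table holds log2 values. On the whole reads recovered from these values, limma-voom called 4 carriers higher and 3 lower. Genes of low level, Slc25a18 above all, are limited by depth, and the added 4 understates their fold.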

Other observations

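Slc25a25, an ATP-Mg/phosphate carrier, spanned from 148 to 2833 scaled reads within the knockout group. The genes whose log2 values were most alike over the 6 libraries, among genes with a log2 range of at least 1, included Slfn3 (Pearson r 0.963), Per1, a gene of the circadian clock (r 0.962), Klf4, a transcription factor (r 0.951), Tob2 (r 0.924) and Amotl2 (r 0.920). Per1 had 2031, 433 and 1945 scaled reads in knockout muscle and 1439, 1228 and 1780 in control muscle, and was lowest in knockout replicate 7, as Slc25a25 was. This pattern was chosen after the values were seen, the 6 points share their libraries, and no test was made.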
